A study of Mus musculus with 6 samples.

Results

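Granins and the enzymes that cut neuropeptide precursors were followed at the mRNA level in the hippocampus of air- and hyperoxia-exposed mouse pups. The 10 genes were taken by name from the 24935 genes of the deposited count table. They are the granins Chga, Chgb, Scg2, Scg3, Scg5, Vgf and Pcsk1n, the convertases Pcsk1 and Pcsk2, and the carboxypeptidase Cpe. All 10 had 1 row each and passed the filter of a mean normalized count of at least 10, as did 17778 genes in all. The set was drawn up with the hyperoxia against air differences of these same libraries already known. Its differences are therefore given as a description, without p-values, and nothing is supported with them.

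C57BL/6 pups and their dams were kept in 85% oxygen (hyperoxia) or in room air from postnatal day 2 (P2) to P14, and the left hippocampus was taken at P14. There were 6 mice, 3 per group, with 1 polyA-selected, strand-specific library each. Pups of both sexes entered the study, and which sex each sequenced mouse was could not be learned from the labels or methods. The dams breathed the same gas as their pups, so an effect through the dam and one on the pup cannot be told apart, and neither can hyperoxia and litter, because litters are not named for these mice. The group of each library was read from its column heading, and the numbers 1 to 3 are those of the headings. Every direction rests on these headings. No deleted or added gene in the design allows them to be checked against the data. The authors' own signed comparison was also deposited, and the headings were not checked against it. A swap of the headings would turn the sign of every difference given here. The directions, those of Chgb, Bdnf and the activity-related genes included, are therefore uncertain, whereas the sizes of the differences and the overlap of the groups do not depend on which group is which. Wherever a value is said below to be lower or higher, or to fall or rise, the direction is the one the headings give.

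Dense core vesicles are the storage compartment from which neurons and endocrine cells release peptides. Granins are acidic secretory proteins that gather with peptide precursors in the Golgi and help form these vesicles, and several are themselves cut into active peptides. Inside the vesicle, the convertases encoded by Pcsk1 and Pcsk2 cut precursors at pairs of basic residues, and carboxypeptidase E trims the exposed basic residues. The product of Scg5 is a chaperone of the Pcsk2 convertase, and that of Pcsk1n (proSAAS) is an inhibitor of the Pcsk1 convertase. In the hippocampus, Vgf, Scg2 and Bdnf are known as genes that respond to neuronal activity, and the cAMP response element (CRE) is a known binding site of CREB in promoters of this family.

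RefSeq promoters on GRCm38.p6 were at hand for 8 of the 10 genes, all except Vgf and Cpe. The 250 bases before each start were searched on both strands for the full CRE, TGACGTCA, which reads the same on both strands, and for TGACG, which lies inside it. The full CRE was present in 3 of the 8 genes (Chgb, Scg2 and Pcsk1), and in 1.55% of all 32851 promoter windows of that length. TGACG or its reverse complement was present in 7 of the 8 genes, Pcsk1n being the exception, and in 17.8% of all windows. The 30 bases around the site are shown for the 3 genes with a full CRE. For comparison they are also shown for Chga, the closest relative of Chgb by name and role. Its site has TGACG and reads TGACGTAA where the full CRE reads TGACGTCA. Each runs 5′ to 3′ on the strand of its gene, with the full CRE or TGACG in capitals.
Chgb: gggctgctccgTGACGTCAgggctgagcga
Scg2: ggctgagccggTGACGTCAgcgtggaatgc
Pcsk1: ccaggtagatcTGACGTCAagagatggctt
Chga: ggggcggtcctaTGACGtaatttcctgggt

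The Chgb window is chr2:132781559-132781588 on the plus strand, and its site begins 72 bases before the RefSeq start. The Scg2 window is chr1:79440076-79440105 on the minus strand, with the site beginning 68 bases before the start. In GENCODE M21, which has earlier starts for these genes, both windows lie in an exon of their own gene. The Pcsk1 window is chr13:75089768-75089797 on the plus strand, with the site 78 bases before the start, and the Chga window is chr12:102554885-102554914 on the plus strand, with its site 44 bases before the start. Those windows lie outside the GENCODE genes. A match of letters is a description and not a binding site, and its relation to the differences below was not tested.

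The levels of the 10 genes spanned a wide range. Per kilobase of exons, and as the mean of the 6 libraries, Cpe had the highest level of the set at 30069.8 normalized counts per kilobase, which placed it at number 20 of the 17778 genes tested. Chgb followed at 10334 per kilobase and Pcsk1n at 8635 per kilobase, at numbers 67 and 89. Scg3 had 4888 per kilobase. The levels of Scg5, Vgf, Scg2 and Chga lay between 3037 and 2309 per kilobase. In air each of these overlapped with its neighbour in the order, whereas in hyperoxia Vgf was below Scg5 and above Scg2 in every library. The length is that of all annotated exons of a gene merged, for Chga 2756 bases against 1883 in its longest transcript. For Vgf it is 2973 against 2834 bases, so the order of genes with close levels depends on the length used. Chgb was above Pcsk1n in all air libraries, at 14068 ± 901 against 9553 ± 681 per kilobase (SD, n = 3), but in hyperoxia the libraries overlapped at 6601 ± 791 against 7717 ± 1777 per kilobase (SD, n = 3). Pcsk2 stood at 934 per kilobase. Pcsk1 was the lowest at 47.8 per kilobase, number 11867, with 141 to 483 reads per library, while the other 9 genes had at least 4272 reads in every library. Of these convertases, Pcsk2 thus had by far the more abundant mRNA.

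**Figure D1:**
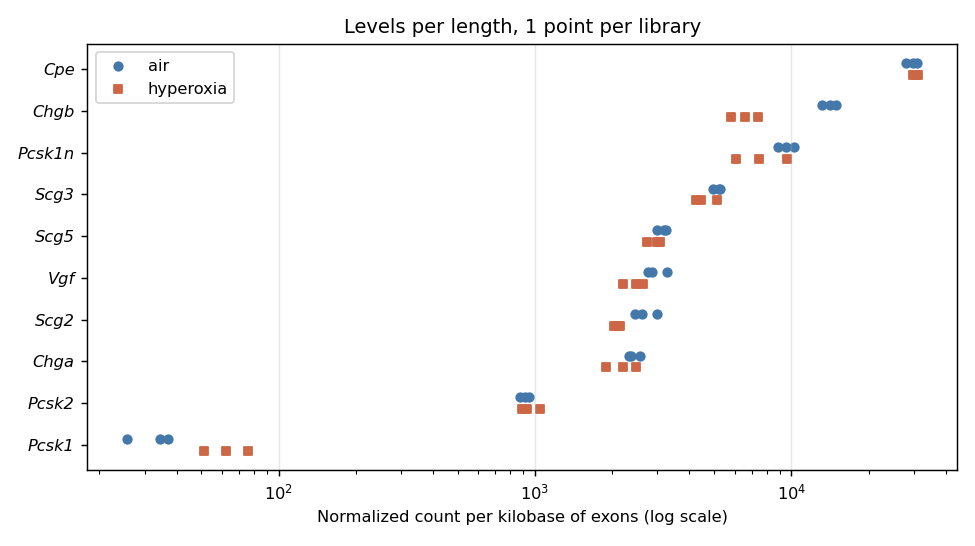
Normalized count per kilobase of exons on a log axis for the 10 genes, ordered by their mean level, with 1 point per library (circles, air; squares, hyperoxia; 3 libraries per group). Cpe is highest at a mean of 30069.8 and Pcsk1 lowest at 47.8, and the circles and squares stand clearly apart for Chgb and Pcsk1.

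The libraries were deep and alike in size, with 30384052 to 38746972 reads on genes. A principal component analysis over all genes tested parted the groups on its first component (52.7% of the variance), and on the second (19.5%) hyperoxia library 2 stood at one end. Of the marker lists used to check the tissue, CA1, CA3, dentate granule cell, interneuron and pan-neuronal markers were present in every library. Dentate granule cell markers were called lower in 5 of 6 genes and oligodendrocyte markers in 5 of 6 genes, beside 15.6% of all genes tested. Pan-neuronal markers were called in all 6 genes, 4 lower and 2 higher (Tubb3 and Stmn2), beside 30.5% of all genes tested. Called higher and lower were 3 and 0 of 6 astrocyte, 2 and 1 of 5 endothelial and 2 and 0 of 5 neocortex markers. Over all genes tested these shares were 14.9% and 15.6%. For CA1 the counts were 2 and 0 of 5, and for CA3 1 and 2 of 5. Interneuron markers had 2 and 1 of 8, and microglia markers 1 and 0 of 6. Choroid plexus markers had a summed normalized count of 8115 in hyperoxia library 3 and between 457 and 1409 in the other libraries, with none of 5 called. The part of cell composition in the values below was not tested. In RNA from whole tissue, fewer cells of a type and less RNA per cell cannot be told apart.

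Normalized counts are read counts divided by 1 size factor per library. Fold changes are hyperoxia minus air on log2 of the normalized count plus 1, with a standard error (SE) from limma fitted over all 17778 genes, and called genes are those with an adjusted p under 0.05 over all of these.

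Chgb encodes chromogranin B, a major granin of neuronal dense core vesicles. Its locus (ENSMUSG00000027350.8) is chr2:132781278-132795079, plus strand, on GRCm38. The air mice, in the order of libraries 1 to 3 used throughout, had normalized counts of 40942, 38684 and 36011, against 18086, 15917 and 20254 for the hyperoxia mice. The groups lay far apart, with the highest hyperoxia library well below the lowest air library. From a mean of 38545 ± 2468 (SD, n = 3) for air, the count was lower at 18086 ± 2168 (SD, n = 3) under hyperoxia, which stood at 46.9% of air. The log2 fold change of −1.10 (SE 0.10) was number 252 from the lowest of the 17778 genes.

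Chga, the gene of chromogranin A, did not share this difference. Normalized counts of 7077, 6517 and 6429.9 in air stood beside 6091, 6845 and 5219 in hyperoxia. Hyperoxia library 2 lay inside the air range, so the groups overlapped. The log2 fold change was −0.15 (SE 0.10). In each library the reads of Chgb can be set against those of Chga, which does not involve the size factors. There were 5.78, 5.94 and 5.60 Chgb reads per Chga read in air and 2.97, 2.33 and 3.88 in hyperoxia.

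Scg2 encodes secretogranin II, the precursor of secretoneurin. Its locus (ENSMUSG00000050711.7) is chr1:79434669-79440120, minus strand. The air mice had normalized counts of 7545, 6575 and 6179, against 5108, 5288 and 5378 for the hyperoxia mice. All hyperoxia libraries were below all air libraries, and they lay closer together (SD 137) than the air libraries (SD 703). Hyperoxia stood at 77.7% of air, a log2 fold change of −0.36 (SE 0.08).

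Vgf encodes a precursor of several secreted peptides. Its locus (ENSMUSG00000037428.14) is chr5:137026392-137033351, plus strand. Normalized counts of 9721, 8206 and 8514 in air stood against 7375, 7829 and 6533 in hyperoxia. All hyperoxia libraries were below all air libraries, though library 2 of hyperoxia came close to library 2 of air. Hyperoxia stood at 82.2% of air, with a log2 fold change of −0.28 (SE 0.09).

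Scg3, whose product tethers granins to the vesicle membrane, had normalized counts of 14470.0, 14343 and 13572 in air and 12177, 14077 and 11654 in hyperoxia. Hyperoxia library 2 again lay within the air range, and the log2 fold change was −0.17 (SE 0.09). Scg5 had 5102, 4984 and 4683 in air and 4694, 4837 and 4292 in hyperoxia, a log2 fold change of −0.10 (SE 0.07). Of the granins, Scg5 had the smallest difference, and its groups overlapped.

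Pcsk1n had normalized counts of 22438, 19450.3 and 20963 in air and 16331, 21081 and 13357 in hyperoxia. The spread in hyperoxia (SD 3896) was larger than that in air (SD 1494), because hyperoxia library 2 was as high as the air libraries and the other two were below them. The log2 fold change was −0.33 (SE 0.14). The exons of Pcsk1n share 135 bases with Eras on the other strand.

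Pcsk1 went the other way from the granins. Its locus (ENSMUSG00000021587.4) is chr13:75089826-75134861, plus strand. The air mice had normalized counts of 208, 143 and 193, against 427, 286 and 349 for the hyperoxia mice. Every hyperoxia library was above every air library. From a mean of 182 ± 33.8 (SD, n = 3) for air, the count was higher at 354 ± 70.4 (SD, n = 3) under hyperoxia, or 195% of air, and the log2 fold change was 0.96 (SE 0.18). By size of difference, Chgb and Pcsk1 stood at percentiles 96.4 and 94.6 of all genes tested, and the other 8 genes between 9.46 and 64.6.

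Pcsk2 and Cpe, the abundant processing enzymes, had overlapping groups. Pcsk2 had normalized counts of 7523, 7224 and 6901 in air and 8299, 7045 and 7329 in hyperoxia, a log2 fold change of 0.06 (SE 0.08). The exons of Pcsk2 share 260 bases with Pcsk2os1 and 99 bases with Pcsk2os2, antisense genes with mean normalized counts of 76.7 and 26.2, and the strand setting of the counting is not stated. Cpe had 73325, 78102 and 80342 in air and 77819, 81283 and 79842 in hyperoxia, a log2 fold change of 0.04 (SE 0.09). There were 36.1, 50.3 and 35.8 Pcsk2 reads per Pcsk1 read in air and 19.4, 24.6 and 21.0 in hyperoxia. Even with the higher Pcsk1 of the hyperoxia libraries, Pcsk2 reads outnumbered those of Pcsk1 in every library. Cpe took 38.9%, 42.4% and 43.7% of the reads of the 10 genes in air and 49.8%, 49.4% and 51.8% in hyperoxia, while Chgb took 21.7%, 21.0% and 19.6% in air and 11.6%, 9.68% and 13.1% in hyperoxia. A share also moves with the reads of the other genes of the set, and the higher share of Cpe is not a higher count.

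**Figure D2:**
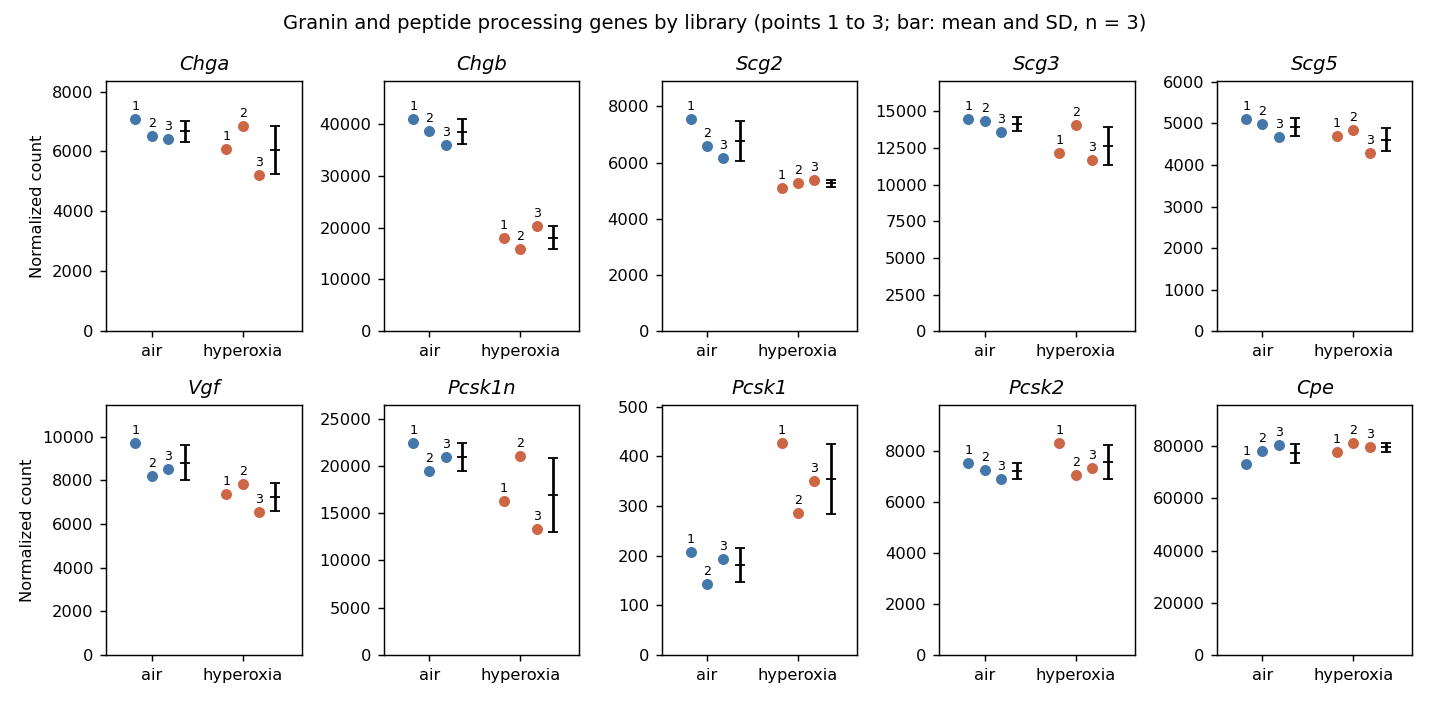
Normalized count of each of the 10 genes in each library (points numbered 1 to 3 by column heading; blue, air; orange, hyperoxia), with the mean and SD of the 3 libraries of a group as a black bar and every axis starting at 0. The groups are apart for Chgb, Scg2 and Vgf (hyperoxia lower) and Pcsk1 (hyperoxia higher) and overlap for the other 6 genes.

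**Figure D3:**
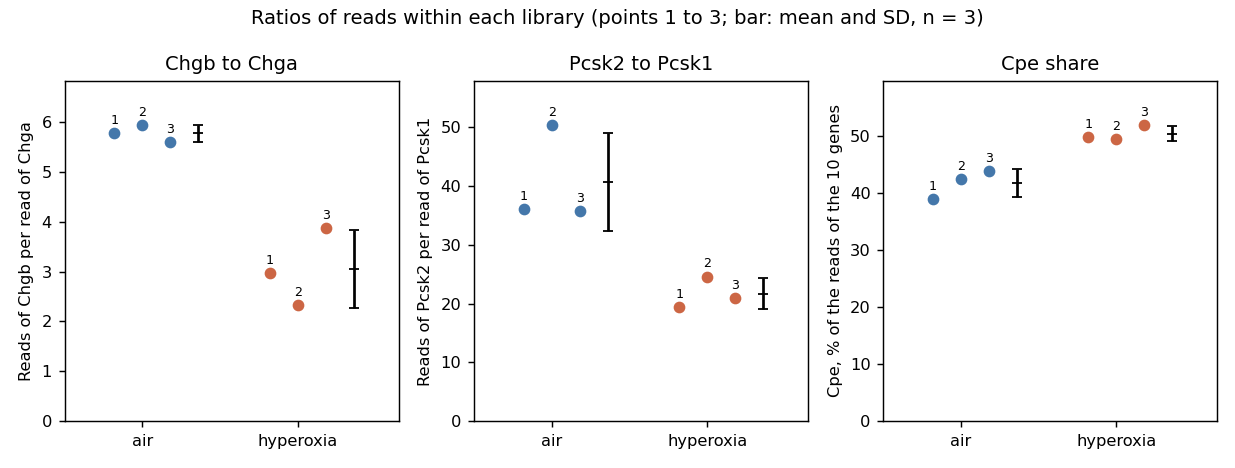
Reads of Chgb per read of Chga, reads of Pcsk2 per read of Pcsk1, and Cpe as a percentage of the reads of the 10 genes, each within 1 library (points 1 to 3; bars, mean and SD, n = 3). Chgb reads per Chga read were 5.60 to 5.94 in air and 2.33 to 3.88 in hyperoxia. The share of Cpe also moves with the reads of the other genes, and the normalized counts of Cpe itself overlapped between the groups.

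Counted over the set, 4 of the 10 genes had groups that did not overlap, beside 46.1% of all genes tested. In limma with Benjamini-Hochberg adjustment, the same 4 genes were called, beside 30.5% of all genes tested in either direction. Chgb, Scg2 and Vgf were lower, beside 15.6% of all genes called lower, and Pcsk1 was higher, beside 14.9% called higher. Nothing is read from these shares, since the set was chosen on this contrast. The median log2 fold change of the 10 genes was −0.16, beside −0.01 for all genes tested, and 7 of the 10 were below 0. Chgb and Pcsk1 were called under all 16 processing alternatives and Scg2 under 15, the call being lost without air library 1 (−0.28). Vgf was called under 7, and lost its call without any one of air libraries 1, 2 and 3 and hyperoxia libraries 1 and 3 (−0.33 to −0.21). Without air library 1, 2 of the 10 genes were called, beside 17.1% of all genes tested.

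**Figure D4:**
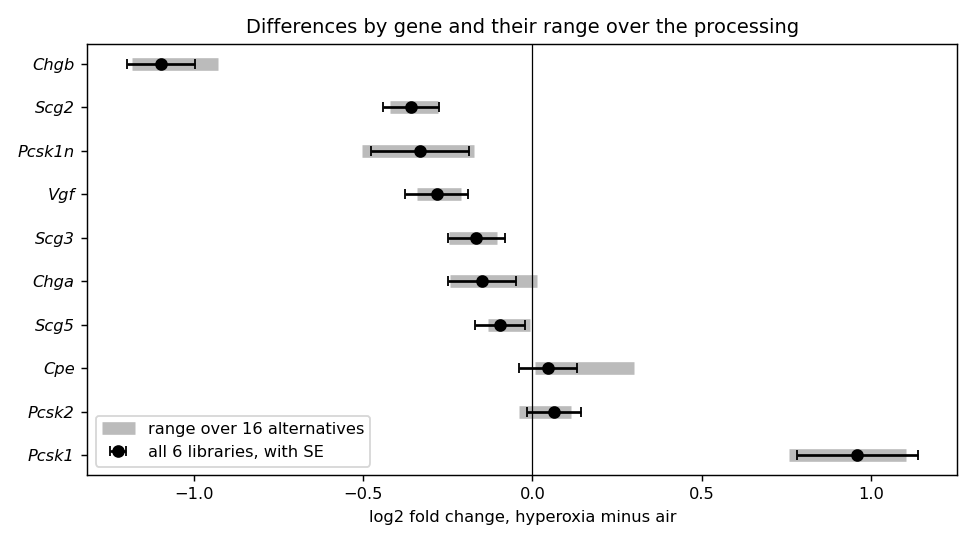
Log2 fold change, hyperoxia minus air, of the 10 genes with all 6 libraries (points; bars, standard error) and its range over the 16 processing alternatives (grey). Chgb lies near −1.10 and Pcsk1 near 0.96 with ranges away from 0, while the ranges of Chga and Pcsk2 cross 0.

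How many granins were called depended on which library was left out, and most were called without hyperoxia library 2. That library was the highest of the hyperoxia libraries for 6 of the 10 genes (Chga, Scg3, Scg5, Vgf, Cpe and Pcsk1n). Without it, 7 of the 10 genes were called, beside 43.6% of all genes tested, and the median log2 fold change of the set was −0.24. The genes added were Chga (−0.24), Scg3 (−0.25) and Pcsk1n (−0.50). Chgb did not follow this order and was lowest in hyperoxia library 2. Hyperoxia library 3 was the lowest of the hyperoxia libraries for 5 of the 10 genes. Leaving out library 3 gave 3 called genes of the 10, beside 4982 of all 17778 genes tested. The median log2 fold change of the set was then −0.08.

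The wider pathway was described with lists named by function. Of 61 genes tested for vesicle biogenesis, vesicle transport and release, and further peptide processing, 28 passed the test, 14 higher and 14 lower in hyperoxia. This was 45.9% of them, beside 30.5% of all genes tested. Leaving out 1 library gave 14 to 40 of the 61, beside 3048 to 7756 of all 17778 genes tested. Without air library 1, 2 or 3 or hyperoxia library 1 the count was 14 to 17, beside 3048 to 3662 of all genes. The share of all genes was 17.1% without air library 1. Without hyperoxia library 2 the count was 40, beside 43.6% of all genes tested.

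Among 20 biogenesis genes, 8 were called lower and 1 higher, beside 15.6% and 14.9% of all genes tested. Their median log2 fold change was −0.14. Ptprn, which encodes a receptor tyrosine phosphatase-like protein of the dense core vesicle membrane, fell from 19453 ± 1112 (SD, n = 3) to 13242 ± 1767 (SD, n = 3), a log2 fold change of −0.56 (SE 0.10, limma adjusted p = 0.0037). Rab2a, the gene of a small GTPase needed for vesicle maturation, changed by −0.33 (SE 0.07, limma adjusted p = 0.0077). Rundc1 changed by −0.35 (SE 0.08, limma adjusted p = 0.0080). Cyb561, whose product carries electrons into the vesicle for peptide amidation, rose from 667 ± 59.1 (SD, n = 3) to 1122 ± 166 (SD, n = 3), a log2 fold change of 0.74 (SE 0.12, limma adjusted p = 0.0020). All 4 were called under each of the 16 alternatives.

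Among 19 genes of transport and release, 7 were called higher and 4 lower, beside 14.9% and 15.6% of all genes tested. Their median log2 fold change was 0.34. Syt4, a synaptotagmin found on dense core vesicles, rose by 0.52 (SE 0.08, limma adjusted p = 0.0018), and Rab27b, the gene of a vesicle GTPase, rose by 0.59 (SE 0.10, limma adjusted p = 0.0027). The paired genes Doc2a and Doc2b, which encode calcium sensors of release, went opposite ways, by 0.71 (SE 0.14, limma adjusted p = 0.0053) and −0.63 (SE 0.08, limma adjusted p = 9.8e-04). Rph3a, a Rab3 effector gene, changed by −0.36 (SE 0.08, limma adjusted p = 0.0074), and Rab3a by −0.44 (SE 0.12, limma adjusted p = 0.021). Cadps, the gene of the priming factor CAPS, rose from 6555 ± 26.9 (SD, n = 3) to 8344 ± 977 (SD, n = 3), by 0.34 (SE 0.09, limma adjusted p = 0.017) on the log2 scale, and by 0.09 with no call after correction for transcript length and GC content. Its relative Cadps2 was not called at 0.27 (SE 0.13, limma adjusted p = 0.14). The calls of Rab3a and Cadps were also lost without air library 1 (−0.36 and 0.34), air library 2 (−0.46 and 0.34) or hyperoxia library 1 (−0.45 and 0.34), and that of Cadps without air library 3 (0.34), whereas Cadps2 was called without hyperoxia library 2 (0.41). In all, Rab3a was called under 11 of the 16 alternatives and Cadps under 10.

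Of 22 further processing and peptide-degrading enzymes, 6 were called higher and 2 lower, beside 14.9% and 15.6% of all genes tested, and 14 were not called. Among them, the convertase genes Furin, Pcsk4, Pcsk5, Pcsk6, Pcsk7 and Mbtps1 were not called. Pam, the gene of the enzyme that amidates peptide ends, rose from 4142 ± 86.3 (SD, n = 3) to 5199 ± 659.9 (SD, n = 3), by 0.32 (SE 0.09, limma adjusted p = 0.028). Pam was called under 11 of the 16 alternatives. Its losses included those without air library 1, 2 or 3 (0.31 to 0.34) and without hyperoxia library 1 (0.23). Mme, the gene of the peptide-degrading enzyme neprilysin, rose by 0.72 (SE 0.14, limma adjusted p = 0.0058), Nln, the gene of neurolysin, by 0.37 (SE 0.08, limma adjusted p = 0.0067) and Lnpep, an aminopeptidase gene, by 1.63 (SE 0.36, limma adjusted p = 0.0089). Ece2, the gene of an endothelin-converting enzyme, fell by 0.38 on the log2 scale (SE 0.08, limma adjusted p = 0.0081). Thop1 changed by −0.26 (SE 0.09, limma adjusted p = 0.046) and was called under only 6 of the 16 alternatives, with losses without air library 1, 2 or 3 (−0.32 to −0.21), hyperoxia library 1 (−0.25) or hyperoxia library 3 (−0.21) and under 5 other settings (−0.26 to −0.15). The correction for transcript length and GC content lowered the changes of Mme to 0.35, Rab27b to 0.25, Rab3a to −0.27, Thop1 to −0.15 and, among the peptide precursors, Cck to −0.16.

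**Figure D5:**
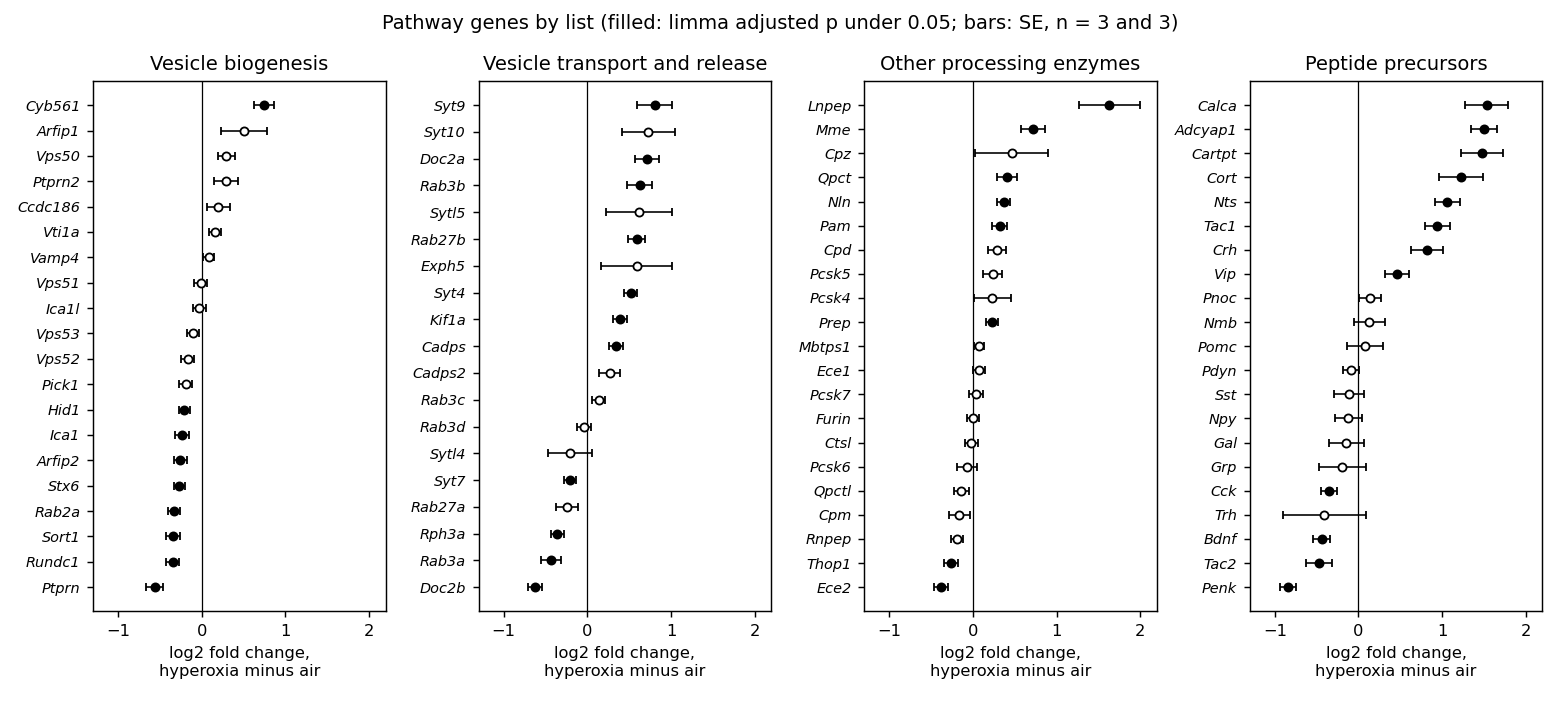
Log2 fold change, hyperoxia minus air, of genes of 4 lists (biogenesis, transport and release, processing, and precursors; 1 processing gene that was not called is not drawn), with standard errors; filled points have a limma adjusted p under 0.05. The biogenesis list has 8 filled points below 0 and 1 above, and the precursor list has 8 above and 4 below. Over all genes tested, 15.6% were called lower and 14.9% higher.

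Of the peptide precursors that this machinery stores and cuts, 21 of 24 were tested and 12 were called, 8 higher and 4 lower, beside 30.5% of all genes tested. Without air library 1, 8 of the 21 were called, beside 17.1% of all genes, and without hyperoxia library 2, 16 were called, beside 43.6%. Adcyap1, the precursor of PACAP, rose from 191 ± 17.7 (SD, n = 3) to 548 ± 113 (SD, n = 3; limma adjusted p = 4.6e-04), Nts, the neurotensin gene, by 1.06 on the log2 scale (SE 0.15, limma adjusted p = 0.0014) and Tac1, the substance P gene, by 0.94 (SE 0.15, limma adjusted p = 0.0024). Penk, the enkephalin precursor gene, fell by 0.85 on the log2 scale (SE 0.10, limma adjusted p = 5.9e-04). Bdnf, a neurotrophin gene, and Cck, the cholecystokinin gene, changed by −0.44 (SE 0.10, limma adjusted p = 0.0089) and −0.35 (SE 0.10, limma adjusted p = 0.021). Without air library 1 neither was called (−0.39 and −0.34), and Cck was not called without air library 2 (−0.33) or hyperoxia library 1 (−0.35) either. Bdnf was called under 15 of the 16 alternatives and Cck under 11. Sst and Npy, both abundant interneuron peptides, were not called.

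Of 15 activity-related genes, 9 fell, none rose and 6 were not called, beside 15.6% of all genes tested that were called lower. Their summed normalized count was 25115 to 29043 in air and 15749 to 18545 in hyperoxia. Their part in the values of Chgb, Scg2 and Vgf was not tested.

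Among the genes outside the set whose log2 values followed Chgb most closely over the 6 libraries were Gm7061, 1700034H15Rik, Rab18 and Slc17a7, with Pearson r of 0.999, 0.999, 0.998 and 0.998. All points share the group difference, and 862 genes had an r above 0.95, so the likeness is a description only. Slc17a7 encodes a vesicular glutamate transporter of excitatory neurons.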

How the data were processed

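The authors deposited 1 signal per gene and library, a read count divided by 1 DESeq2 size factor per library. The submitters' processing notes name FastQC, STAR 2.5.3a, HTSeq and DESeq2. Genome build, annotation and strand setting were not given in the sources used here. A second deposited table holds the authors' own comparison (mean count, log2 fold change, standard error, Wald statistic, p and adjusted p) and was not used.

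All values (100% in each library, within 0.01 of a whole number) were whole multiples of 1 read, so the reads were recovered. Genes whose deposited values averaged 10 or more were tested on log2(value + 1) in limma 3.58.1 under R 4.3.3, with its trended prior variance and Benjamini-Hochberg adjustment. On this scale the change of low genes is understated. Normalized values are not raw counts, so edgeR 4.0.16 and DESeq2 1.42.0 on the recovered reads (5501 and 5611 genes called, against 5425) were alternatives. The others were pseudocounts, filters, quantile and TMM scaling, no trend, a correction for GC content and length of the longest transcript (smooth terms, mgcv 1.9.3), and each library left out. The code was tested on simulated data. An exact two-sided permutation test of 3 against 3 mice cannot go below p = 0.1, so none is given. Replicates are separate mice.

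Positions and exon lengths came from GENCODE M21 (GRCm38), which holds 99.7% of the gene identifiers, and promoters from RefSeq (GRCm38.p6). The genes, lists and tests were chosen with earlier results of these data known. Named genes are the 10 members, Pam, Cadps, Cadps2, up to 3 called genes per list and direction with the smallest adjusted p, and the 5 genes most like Chgb; some items are not reported here. Others in the text (convertases, Sst, Npy, Tubb3, Stmn2) were named to complete a list or count. Of the marker lists, those of interneurons (3 of 8 called), CA1 (2 of 5), CA3 (3 of 5), astrocytes (3 of 6), microglia (1 of 6), endothelium (3 of 5), neocortex (2 of 5), and pituitary and chromaffin cells (1 of 3 tested) were also run. Over all genes tested, 30.5% were called. Python 3.11.15 and matplotlib 3.10.9 were used for tables and figures.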

Additional observations from a re-analysis of the deposited data

How the results depend on the processing

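Over the 39 genes that the naming rule selects and 16 alternatives, 569 of 623 values kept their direction and their side of the threshold, 45 lost a call, 6 gained one and 3 changed sign. The changes of sign were Chga after the length and GC correction (0.014) and Pcsk2 after that correction (−0.040) and without hyperoxia library 1 (−0.0052, in a leave-one-out range up to 0.11), none of them called. Gm7061 had no value with a minimum mean of 50. Quantile normalization called Cpe (0.30), and it, the unfiltered fit, limma without the trend and edgeR ended the call of Vgf (−0.28 to −0.24). With 1 library left out, 3048 to 7756 of all genes were called, 2 to 7 of the 10 granin and processing genes, 14 to 40 of the other pathway genes and 8 to 16 of the precursors, and the median log2 fold change of the 10 genes ranged from −0.24 to −0.078. Limma without the trend called 17 of the other pathway genes, beside 4224 of all genes tested. Fits with 1 library left out have fewer samples, and otherwise the cause was not tested. No paired analysis was possible because the labels number the 6 mice separately and the headings do not say that a shared number joins an air and a hyperoxia mouse. Depth was not limiting for 9 of the 10 genes, and Pcsk1 rests on 141 to 483 reads per library.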
